A study of Mus musculus with 4 samples.

Results

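The binding of the zinc-finger protein CTCF was examined at 10 genes for calcium/calmodulin-dependent (CaM) kinases and postsynaptic proteins: Camk2a, Camk2b, Camk2d, Camk2g, Camk4, Dlg4, Shank1, Shank2, Shank3 and Nrgn. They are 10 of the 21755 protein-coding genes of the GENCODE M21 annotation of the mouse genome build mm10. They were chosen by name, with earlier results of these data known. A locus was the gene body with 10 kb on either side, and a site belonged to it if the summit, the base where the peak was highest, lay inside. The loci held 114 of the 90278 summits. The data are ChIP-seq, in which DNA bound by CTCF is precipitated and sequenced, from bulk hippocampal layer tissue of male B6CASTF1/J mice aged 2 months, untreated as far as the labels state, F1 hybrids of C57BL/6J and CAST/EiJ. There were 4 libraries in 2 biological replicates, each replicate a pool of 7 tissue biosamples sequenced as 2 technical libraries. Both pools carry a single donor entry in the labels; whether they came from separate animals is not stated, and the replicate spread may be technical in part. No second tissue, treatment or genotype was compared, and the values below are therefore descriptions with no test between groups.

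Calcium entering through NMDA receptors loads calmodulin, which activates CaM kinase II (CaMKII), a multi-subunit kinase whose autophosphorylation outlasts the calcium signal and which is required for long-term potentiation in the hippocampus. The postsynaptic density that receives this kinase is built on scaffold proteins: PSD-95, encoded by Dlg4, holds receptors at the membrane, and the SHANK proteins link that layer to the actin cytoskeleton. CTCF binds DNA through a motif that has a direction, stops the cohesin complex as it extrudes chromatin loops, and often marks loop anchors, where motifs point towards each other.

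A core CTCF motif of 12 bases, sought on either strand up to 50 bp from a summit with at most 1 mismatch, was found at 53 of the 114 summits, with a background of 50.3% over all summits. The strongest such summit of each gene is given for 8 genes, to show the motif that CTCF recognises in its setting; the limit of 1 mismatch was part of the choice. For Dlg4, Shank1, Shank3 and Nrgn this is not the strongest summit of the gene, which had a match with 2 mismatches only. Letters are the RefSeq sequence of GRCm38 (mm10), which is C57BL/6J, so CAST/EiJ alleles are not shown. Each sequence is 52 bases, 5′ to 3′ on the strand of the motif, with the 12 bases of the motif match in capitals.
Camk2b: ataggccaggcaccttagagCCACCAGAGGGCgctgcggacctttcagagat
Camk2d: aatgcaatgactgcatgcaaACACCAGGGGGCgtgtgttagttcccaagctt
Camk2g: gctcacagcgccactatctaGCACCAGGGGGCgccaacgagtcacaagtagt
Dlg4: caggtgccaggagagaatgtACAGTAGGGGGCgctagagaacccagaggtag
Shank1: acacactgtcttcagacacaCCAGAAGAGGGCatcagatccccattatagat
Shank2: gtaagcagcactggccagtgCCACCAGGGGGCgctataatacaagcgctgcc
Shank3: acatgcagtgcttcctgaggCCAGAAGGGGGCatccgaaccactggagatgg
Nrgn: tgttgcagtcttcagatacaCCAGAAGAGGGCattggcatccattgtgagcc
The Camk2b sequence lies at chr11:5996118-5996169 on the plus strand, that of Camk2d at chr3:126771732-126771783 on the minus strand and that of Camk2g at chr14:20766085-20766136 on the plus strand. The Dlg4 sequence is at chr11:70049904-70049955 (plus), Shank1 at chr7:44363295-44363346 (plus), Shank2 at chr7:144426134-144426185 (minus), Shank3 at chr15:89495122-89495173 (plus) and Nrgn at chr9:37547066-37547117 (minus). The Camk2b and Shank2 sequences match the core motif with no mismatch. Those of Camk2d, Camk2g and Dlg4 miss it at the first base, and those of Shank1, Shank3 and Nrgn at position 5.

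All 10 genes had a CTCF summit in the gene body or within 10 kb, against a background of 81.0% of protein-coding genes. All 10 also had a summit inside the gene body, where the background was 61.0%. The count ran from 3 summits at Nrgn and 5 at each of Camk2d and Dlg4 to 14 at Camk2g and 35 at Shank2. Shank1 had 8, Camk4 had 9, Camk2b had 11, and Camk2a and Shank3 had 12 each. Longer genes held more summits, from a median of 2 in genes of about the length of Nrgn to 12 in those of about the length of Shank2, so each gene was set beside the protein-coding genes of 0.5 to 2 times its length. Camk2g had 14 summits where genes of comparable length had a median of 5, and was at percentile 97.9 among them. Shank2, with 35 against a median of 12, was at percentile 97.8. Shank3 and Camk2a, with 12 summits each against a median of 5, were at percentiles 95.2 and 94.9. Camk2b (11 against 6) and Shank1 (8 against 4) were at percentiles 86.0 and 84.7, Dlg4 (5 against 4) at 69.0 and Nrgn (3 against 2) at 64.1. The long kinase genes Camk4 (9 summits, the same as the median of 9) and Camk2d (5 against 9) were at percentiles 47.6 and 21.5. Per 100 kb of locus the 10 genes had a median of 10.2 summits and all protein-coding genes a median of 6.004.

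**Figure D1:**
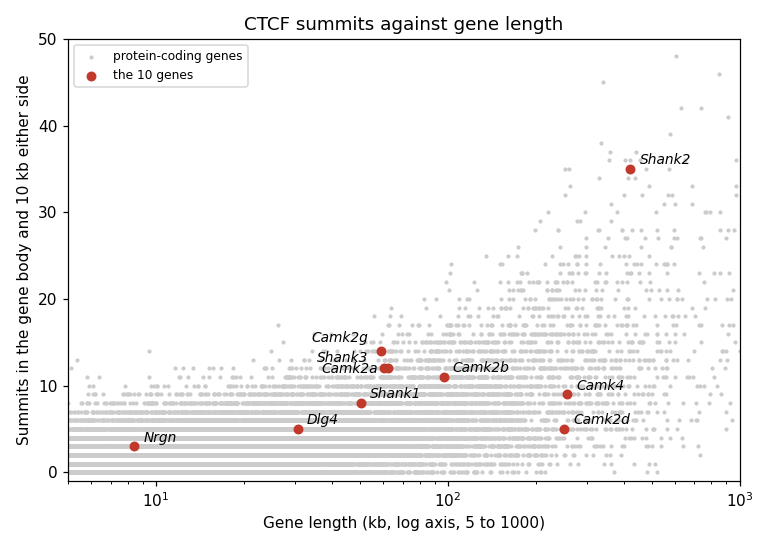
Number of CTCF summits in the gene body and 10 kb either side (vertical axis) against gene length in kb (log axis) for protein-coding genes (grey) and the 10 genes (red, named). Shank2 with 35 summits and Camk2g with 14 lie towards the upper edge for their length, and Camk2d with 5 lies towards the lower part.

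CTCF lay mainly in introns. Introns held 85 of the 114 summits (74.6%, 95% exact Clopper-Pearson interval 65.6% to 82.3%, counting error only), where the background over all summits was 48.0%. A locus is defined by a gene, so its summits are more likely to be intronic than those of the genome, which include the space between genes. Of the 85, 81 were in introns of the 10 genes and 4 in introns of neighbours in the flanks. The other summits comprised 8 at promoters (7.02%, background 13.9%), 10 between genes, 6 in coding exons and 5 in other exons. For the classes between genes and in exons no share over all summits is given here, so these counts are not read as high or low. A promoter is here within 1 kb of a transcription start site (TSS) of the basic annotation. Of the 8 promoter summits, 3 lay at the promoters of other genes in the flanks: Ndst2 beside Camk2g, Acadvl beside Dlg4 and Gm44780 beside Shank1.

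**Figure D2:**
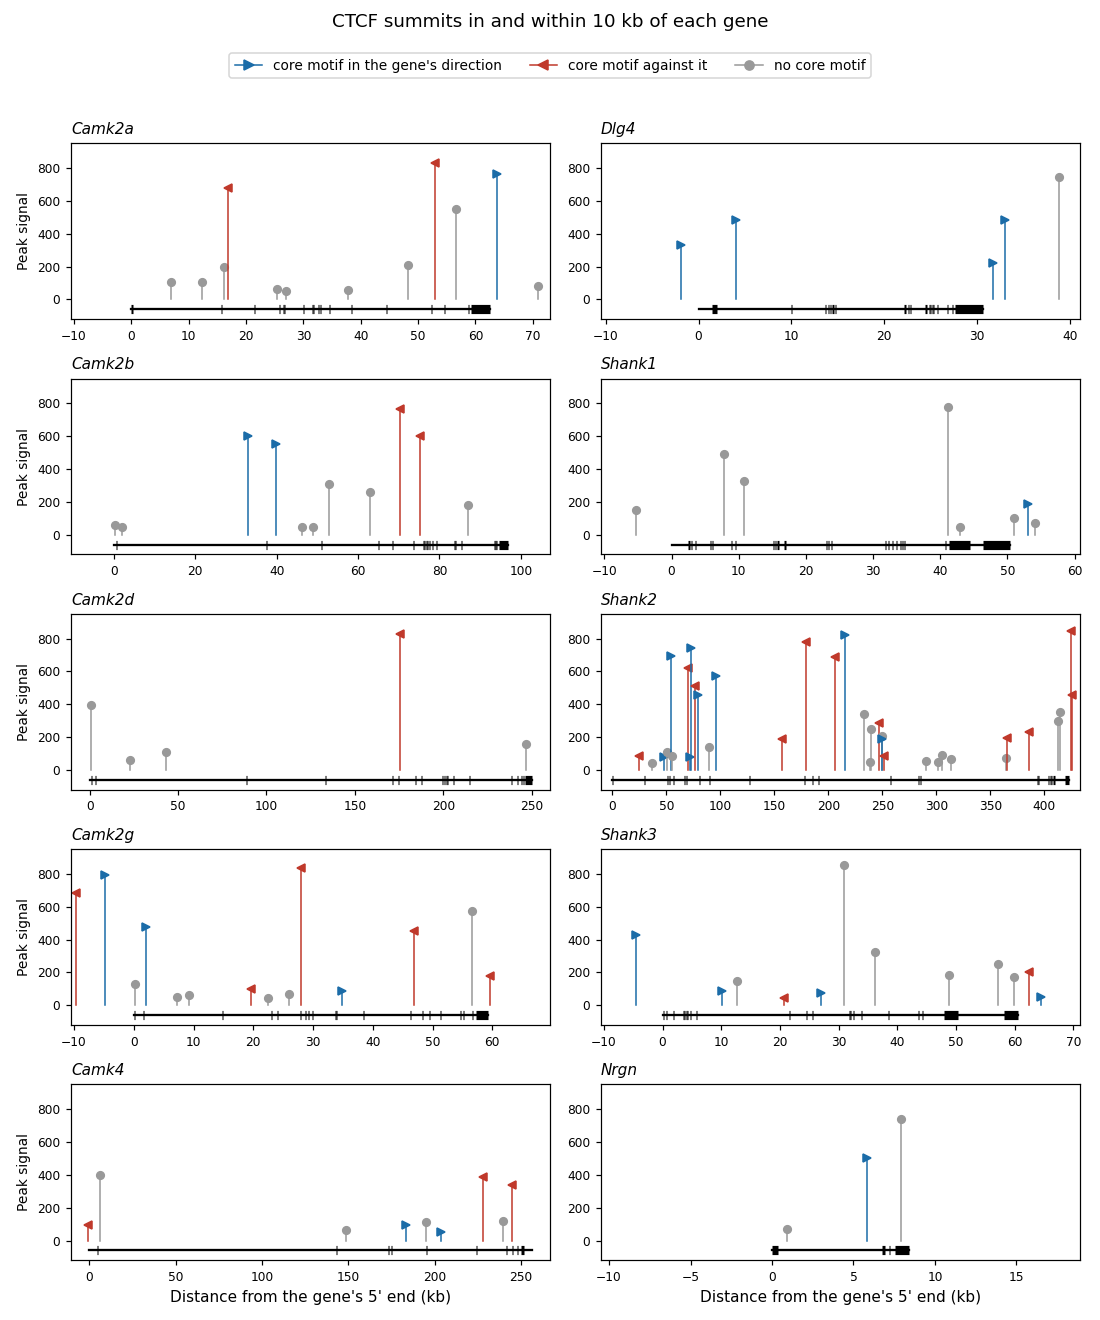
CTCF summits along each of the 10 genes: the horizontal axis is the distance from the gene's 5′ end in kb, the height is the peak signal, and the bar below shows the gene with its exons as blocks. Triangles mark summits with a core motif, pointing with the gene (blue) or against it (red), and grey circles mark summits without; Camk4 is the gene with no summit above 397.

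At their own promoters 5 of the 10 genes had a summit, where the background was 38.0%: Camk2a, Camk2b, Camk2d, Camk2g and Nrgn. Among genes of comparable length the share with a promoter summit ran from 32.3% for Nrgn to 57.8% for Shank2, and 5 of 10 lies within that range. All 4 CaMKII genes were among the 5, and Camk4, Dlg4 and the 3 SHANK genes were not. This division depends on weak summits: in the peak list called on pooled reads only Camk2d and Camk2g had a promoter summit. The strongest of these summits was that of Camk2d, with a signal of 398, 54 bp from a TSS. Signal is the authors' peak signal, whose scale is not stated. It was used to order peaks within the list, to take medians and to compare the replicates at the same summits. The Camk2g summit (130) lay 1 bp from a TSS, in exon 1. Nrgn (72.1) had its summit 949 bp inside the gene, Camk2b (60.6) 403 bp upstream of a TSS and Camk2a (56.9) 186 bp upstream of an internal TSS. Their median signal was 72.1, against 162 for promoter summits as a whole. With the comprehensive annotation, which adds starts of less certain transcripts, 8 of the 10 genes had a promoter summit, against a background of 43.9%; Camk4, Shank1 and Shank3 were added. The added Shank3 summit, 243 bp from such a start, was the strongest of all 10 loci at 853, and the added Shank1 summit, 687 bp from a start, was the strongest of that gene at 778. For Camk2g the strongest summit within 1 kb of a start was then the one of 837 in intron 6, and for Nrgn the one of 500 in intron 1. Dlg4 and Shank2 had none under either annotation, their nearest summits being 1890 bp and, with the comprehensive annotation, 1822 bp from a start.

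Camk2a, on the plus strand at chr18:60925618-60988152, encodes the alpha subunit of CaMKII, the most abundant subunit in forebrain excitatory neurons. Of its 12 summits, 10 lay in introns and 2 in the downstream flank. The strongest was in intron 15, with a peak signal of 833 and replicate signals of 414 in replicate 1 and 423 in replicate 2. The summit 1142 bp beyond the 3′ end of the gene followed at 761 (replicate signals 367 and 393), and a summit in intron 2 at 680 (328 and 353). The motifs of the 2 intronic summits pointed against the gene and that beyond the 3′ end pointed with it, so the last pair pointed away from each other. The intron 15 and downstream summits matched the core motif with no mismatch. Another strong summit, in intron 16 at 548, had no core motif with at most 1 mismatch. The first intron, of 15446 bp, held only 2 weaker summits of 106 and 104. The remaining summits ranged from 49.2 to 208.

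Camk2b, on the minus strand at chr11:5969644-6066362, encodes the beta subunit, which binds actin and targets the kinase to the cytoskeleton. All 11 summits lay in the gene body. The strongest, in intron 5, had a signal of 768 with replicate signals of 367 and 399. Intron 1 held a summit of 601 (292 and 312), intron 6 a summit of 599.6 (291 and 307) and intron 2 a summit of 554 (246 and 309). These 4 were the summits of the gene with a core motif, and all 4 were above the 7 without, of which the highest was 308. Along the gene the first pair of motifs, in introns 1 and 2, pointed with transcription and the second pair, in introns 5 and 6, against it. The 2 groups therefore pointed towards each other across introns 3 to 5. The promoter end was weak by comparison: the promoter summit had 60.6 and another in intron 1 had 47.6.

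Camk2d, on the plus strand at chr3:126596302-126846326, encodes the delta subunit, which is also prominent in heart. Its 5 summits were 1 at the promoter, 2 in intron 2, 1 in intron 6 and 1 in the 3′ untranslated part of the last exon. The intron 6 summit had a signal of 829, with replicate signals of 403 and 434. The promoter summit (398; 197 and 200) came next, and the other 3 had 159, 108 and 61.8. The intron 6 site was the only summit of the locus with a core motif. It lay at the first base of a coding exon that is annotated in a few other transcripts of the gene and is skipped in the transcript used for numbering. Between the last summit of intron 2 and this site 132393 bp held no summit, a stretch longer than the whole of Camk2b.

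Camk2g, on the minus strand at chr14:20734875-20794088, encodes the gamma subunit, described as a carrier of calmodulin from synapse to nucleus. With 14 summits in a 79214 bp locus it was the densest of the 10, at 17.7 per 100 kb. Its strongest summit, in intron 6, had a signal of 837 and replicate signals of 405 and 434. That intron is only 138 bp long, and the summit lay 62 bp after its start. The next were 2 summits in the upstream flank: 794 at 4893 bp from the nearest TSS (389 and 407) and 683 at 9654 bp (347 and 340). The motifs of these 2 pointed in opposite directions. Core motifs stood at 8 of the 14 summits, including the intron 2 summit of 475, 1869 bp inside the gene. The summit at 1 bp from the TSS had none and lay in a CpG-rich stretch, with 28 CpG within 100 bp either side.

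The 4 CaMKII genes arose by duplication and share their exon structure through the kinase domain, so their introns can be aligned by the coding bases before them. Intron 6 followed 414 coding bases in Camk2b, Camk2d and Camk2g and 411 in Camk2a, and each of the 4 genes had 1 summit in it. The signals were 829 in Camk2d, 837 in Camk2g, 599.6 in Camk2b and 49.2 in Camk2a. Near the weak Camk2a summit, no summit of either replicate's own thresholded list or of the pooled-read list lay within 100 bp. That all 4 genes share the intron thus rests on this weak call. In Camk2d, Camk2g and Camk2b a core motif was present, and in all 3 it pointed against the gene; Camk2a had no core motif there. The Camk2d and Camk2g sites are among the sequences given earlier; the Camk2b site, chosen for display after its value was seen, lies at chr11:5991086-5991137 on the plus strand and is shown with them because all 3 share nearly all 12 motif bases.
Camk2b, intron 6: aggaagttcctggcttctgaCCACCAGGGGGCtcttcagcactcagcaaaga
Camk2d, intron 6: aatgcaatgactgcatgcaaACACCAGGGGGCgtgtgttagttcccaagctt
Camk2g, intron 6: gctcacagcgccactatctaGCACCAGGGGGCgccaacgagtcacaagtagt
Each pair of these sequences was identical at 11 of the 12 motif bases. The search allowed at most 1 mismatch to the core motif, so high identity at these bases was largely set by the search. Outside the motif, identity was 32.5% between Camk2d and Camk2g, 25% between Camk2b and Camk2d and 22.5% between Camk2b and Camk2g, close to the median of 27.5% over all pairs of motif sites in the 10 loci. The position within the intron also differed, at 917 bp after its start in Camk2d, 62 bp in Camk2g and 1719 bp in Camk2b. Intron 2 was the other intron with a summit in all 4 genes, after 157 coding bases in Camk2a and 160 in the others. Its strongest summits had signals of 680 in Camk2a, 554 in Camk2b, 475 in Camk2g and 108 in Camk2d. Their motifs pointed with the gene in Camk2b and Camk2g and against it in Camk2a, and the Camk2d summit had no core motif. These shared positions were noticed in the data and were not tested.

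Camk4, on the plus strand at chr18:32934931-33191228, encodes a nuclear CaM kinase that phosphorylates the transcription factor CREB. It was the gene whose strongest summit was lowest, with 397 in intron 1 (replicate signals 188 and 209). Summits of 387 in intron 7 (203 and 185) and 336 in coding exon 9 (159 and 176) followed. The 3 strongest were similar in signal, and those of intron 7 and exon 9 carried motifs against the gene. Intron 1 spans 138448 bp and held 1 summit, 2251 bp from the TSS, after which 142242 bp were free of summits. The other 6 summits ranged from 50.8 to 120.

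Dlg4, on the plus strand at chr11:70016942-70047522, encodes PSD-95, the main scaffold of the excitatory postsynaptic density. Only 1 of its 5 summits lay in the gene, in intron 1, with a signal of 486 (replicate signals 236 and 253). The strongest, at 746 (370 and 378), lay 8243 bp beyond the gene in an intron of Asgr1, 1067 bp from that gene's nearest TSS. The upstream summit, at 329, was at the Acadvl promoter, and the downstream summits nearest to Dlg4 had 219 and 486. The gene body beyond intron 1 held no summit, so 27643 bp separated the intron 1 summit from the next. All 4 core motifs of the locus were on the plus strand, in the direction of the gene, and the strongest summit had none.

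Shank1, on the plus strand at chr7:44310253-44360572, encodes a scaffold that binds PSD-95-associated proteins and Homer. Its strongest summit, in intron 23, had a signal of 778 with replicate signals of 379 and 399. That intron is 512 bp long and precedes coding exon 24, of 3088 bp, which itself held a weak summit of 46.5. Intron 6 held a summit of 491 (242 and 249.7) and intron 8 a summit of 327 (148 and 179). None of these 3 had a core motif with at most 1 mismatch, although each had a match with 2 mismatches. The only core motif of the locus stood in the downstream flank, at a summit of 185, and is the sequence given for Shank1. It is therefore not the sequence of a strong site of the gene.

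Shank2, on the plus strand at chr7:144001928-144424494, is the longest of the 10 genes at 422567 bp and encodes a scaffold of the same family. Of its 35 summits 33 lay in the gene body. The strongest lay 1667 bp downstream of the gene, at 849 (replicate signals 408 and 446), with a motif of no mismatch. Summits of 819 in intron 13 (417 and 403) and 778 in intron 11 (375 and 406) also matched the core motif with no mismatch. Core motifs stood at 20 of the 35 summits, 8 with the gene and 12 against it. The summits were clustered: intron 7, of 11611 bp, held 5 within 9202 bp, with signals of 623, 81.3, 743, 511 and 457. Each of the 5 had a core motif. Intron 13, of 66534 bp, held 9 summits, and intron 16, of 108696 bp, held 7, of which the highest was 230. Between the clusters, 61472 bp from intron 9 to intron 10 held none.

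**Figure D3:**
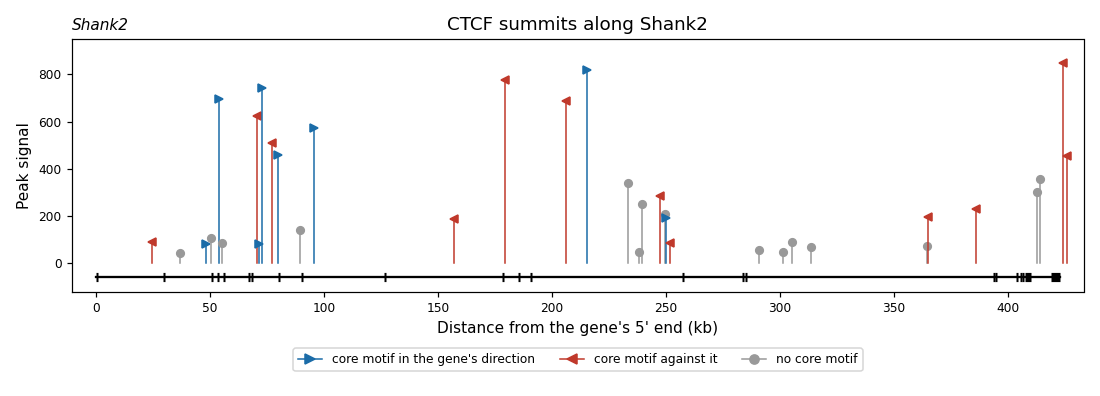
CTCF summits along Shank2: distance from the gene's 5′ end in kb (horizontal axis) against peak signal, with exons as ticks and motif direction as blue (with the gene) and red (against it) triangles or grey circles for no core motif. A cluster with signals up to 743 stands in intron 7, the 9 summits of intron 13 reach 819, and the strongest of all, at 849, lies just beyond the 3′ end.

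Shank3, on the plus strand at chr15:89499623-89560261, encodes the SHANK scaffold whose loss is known from Phelan-McDermid syndrome. It held the strongest summit of the 10 loci, in intron 12, with a signal of 853 and replicate signals of 410 and 450. That placed it at rank 839 of the 90278. It had no core motif with at most 1 mismatch, only a match with 2. The upstream flank held a summit of 426 (198 and 228) 4481 bp from the TSS, and intron 17 a summit of 327 (161 and 167). Coding exon 21, of 2257 bp, held a summit of 184. The other 8 summits ranged from 45.3 to 249. Shank1 and Shank3 thus each carried a summit in a long coding exon near the 3′ end, with signals of 46.5 and 184. The Shank3 summit lay within 100 bp of one in both replicates' thresholded lists and the pooled-read list, the Shank1 summit in none of them. In Shank2 the coding exon before intron 22, at 407.5 to 409.9 kb from the start of the gene, held no summit.

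Nrgn, on the minus strand at chr9:37544492-37552904, encodes neurogranin, which binds calmodulin at low calcium and releases it as calcium rises. It is the shortest of the 10 genes, at 8413 bp, and had 3 summits, all within it. The strongest lay in the 3′ untranslated part of exon 4, with a signal of 739 and replicate signals of 379 and 362. It had no core motif with at most 1 mismatch and lay in a CpG-rich stretch, with 14 CpG within 100 bp either side. An intron 1 summit had 500 (237 and 260), with the motif shown earlier, and the promoter summit had 72.1 (37.2 and 33.1).

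The strongest summits of the genes were among the strongest of the genome for all but Camk4. In 9 of the 10 genes at least 1 summit reached the strongest decile of all summits, a signal of 718 or more, where the background was 30.7% of protein-coding genes. Among genes of comparable length the share ran from 25.3% for Nrgn to 60.6% for Shank2. In all, 14 of the 114 summits reached that decile, where 9028 of the 90278 summits of the genome did, a share near that of the loci. The 14 were 4 at Shank2, 2 each at Camk2a and Camk2g and 1 each at Camk2b, Camk2d, Dlg4, Shank1, Shank3 and Nrgn. A gene with more summits has more chances to hold 1 of that decile, and the shares of genes were not matched for summit number. The median signal of the 114 summits was 193 and that of all summits 165. In bulk tissue, a lower signal from fewer cells or alleles bound and one from weaker binding in each cannot be told apart.

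The deposited peak lists did not treat all of the strongest sites alike. Each summit had passed an irreproducible discovery rate (IDR) of 0.05, a measure of how reproducibly a peak ranks, between the 2 replicates. Of the 114 summits, 83 lay within 100 bp of a summit of the thresholded list of replicate 1, 88 of that of replicate 2 and 79 of that called on pooled reads, and 21 were in neither replicate's own list. The counts for the single lists are 72.8%, 77.2% and 69.3% of the 114, where the shares over all summits were 79.0%, 79.5% and 77.0%. For the 21 in neither replicate's list no share over all summits is given here. Whether that count is high or low for these loci is therefore not known. The strongest summits of Camk2a, Camk2g, Shank2 and Shank3 did not pass in the pooled-read list. They were in its full ranked list with the same signal, but with IDR scores of 72, 418, 215 and 233, below the 540 that corresponds to an IDR of 0.05. Those of Camk2a and Shank3 also missed the threshold in replicate 1, with scores of 496, and passed in replicate 2. Among all summits, 85.1% of the strongest decile but only 33.9% of the strongest 1000 were in the thresholded pooled-read list. The cause was not tested.

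Core motifs were at 46.5% of the 114 summits (exact interval 37.1% to 56.1%, counting error only), and the background share of 50.3% lies inside that interval. The interval treats summits as independent, although Shank2 alone held 35 of the 114 and 20 of the 53 with a core motif. It is therefore a description and no test. In windows shifted by 1 kb, 1 of the 114 held a match, and 1.25% of all summits did. Summits with a core motif had a median signal of 453 and those without had 111; over all summits these medians were 238 and 126. With respect to their gene, 26 motifs pointed in the direction of transcription and 27 against it. Among the 43 pairs of neighbouring motif summits within a locus, 11 pointed towards each other, 11 away from each other and 21 the same way. Shank2 alone gave 19 of these pairs, with 5 towards, 5 away and 9 the same way. No share over the genome is given here for motif direction or for neighbouring pairs. The nearest motif summits outside each gene pointed towards each other around Camk2d, Camk2g, Shank2, Shank3 and Nrgn, 5 of the 10 genes, against a background of 26.3%. They pointed away from each other around Camk2b and Camk4 and the same way around Camk2a, Dlg4 and Shank1. The distances differ widely: the pair around Shank3 lay 4481 bp and 1830 bp from the gene, whereas the left neighbour of Shank1 was 381532 bp away.

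Some of the motif sites in the scaffold genes have nearly the same sequence. The motif summit downstream of Dlg4 (signal 219) and that in intron 12 of Shank3 (75.2) are identical at 49 of 52 bases. They are shown here, chosen after their values were seen, beside the Nrgn intron 1 site (500), which matches the Dlg4 site at 37 of 52.
Dlg4, downstream: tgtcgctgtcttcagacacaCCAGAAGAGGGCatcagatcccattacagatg
Shank3, intron 12: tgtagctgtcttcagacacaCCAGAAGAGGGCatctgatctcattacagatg
Nrgn, intron 1: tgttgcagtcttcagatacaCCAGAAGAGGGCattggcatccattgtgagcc
The Dlg4 site lies at chr11:70048602-70048653 and the Shank3 site at chr15:89526619-89526670, both on the plus strand. In all, 10 motif sites of 6 genes were at least 60% identical outside the motif to another of the 53, in 21 of 1378 pairs, and 5 of these sites were in or beside Shank3. The 12 capital letters of the Nrgn site recurred at 10 other motif summits of the loci, and stood at 35.1% of the motif summits of the genome. At least 60% identity to the Nrgn site outside the motif was found at 4 of the 53 (7.55%, the Nrgn site included). Over all motif summits of the genome that share was 10.4%, so such sites are not particular to these genes. The motifs of the Dlg4, Shank3 and Nrgn sites shown here are in lower case in the reference, the mark of repeated sequence. So are those of the Shank1 and Shank3 sequences given earlier. Of the motif sites of the genome at least 60% identical to the Nrgn site, 99.8% are marked in this way. Rodent B2 short interspersed elements are known to carry a CTCF motif, but no repeat annotation was used here and the class of these repeats was not determined. Over the 10 loci, 14 of the 53 motifs (26.4%) lay in such marked sequence, against 43.6% of all motifs at summits. Their median signal was 195, and that of the unmarked motifs was 486; over all summits it was 118 and 514.

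The replicates gave similar signals at these sites. Each site had passed the IDR threshold between the 2 replicates, so agreement was in part a condition of the list. The correlations below are therefore descriptions and no separate evidence of reproducibility. Across the 114 summits, which share libraries and so are no independent samples, the log2 signals of the replicates had a Pearson's r of 0.99, and Spearman's rho was also 0.99. The log2 ratio of replicate 2 to replicate 1, less the median over all summits, had a median of 0.01 and an SD of 0.21 over the 114 sites, and an SD of 0.41 over all summits. At 5 of the 114 the ratio fell outside the central 95% for summits of similar signal, where the background was 5.01%. The largest was in the upstream flank of Shank1, inside a coding exon of Clec11a, with signals of 49.4 in replicate 1 and 102 in replicate 2 (log2 ratio 0.95). The other way, the Ndst2 promoter beside Camk2g had 98.8 and 74.0 (-0.51) and the Shank3 intron 12 site of the near-identical pair 42.7 and 32.6 (-0.48). The others were the Camk2b intron 2 summit of 554 (0.24) and the Nrgn exon 4 summit (-0.16). Among the strongest site and the promoter sites of each gene, that Nrgn summit alone lay outside the range.

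**Figure D4:**
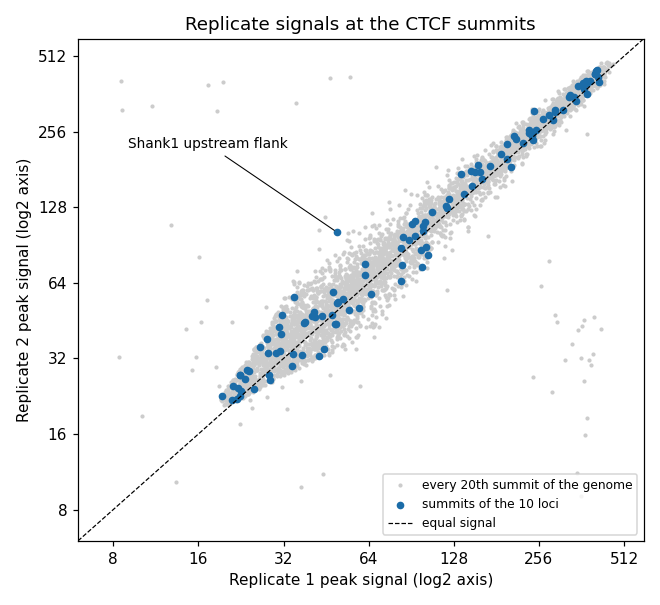
Peak signal in replicate 1 (horizontal) and replicate 2 (vertical), both on log2 axes, for the 114 summits of the 10 loci (blue) and every 20th summit of the genome (grey), with the line of equal signal. The blue points follow the line, with the Shank1 upstream summit, at 49.4 and 102, farthest from it.

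Other genes of the same pathways were counted from 2 lists, 16 genes of the CaM kinase cascade and calmodulin and 24 of the postsynaptic scaffold. All 40 had a summit in the gene body or within 10 kb, where the background was 81.0% of protein-coding genes. At the promoter, 25 of the 40 had a summit (62.5%, background 38.0%), 7 of the 16 and 18 of the 24. These backgrounds are not matched for length, and several of the 40 genes are long, Dlg2 spanning 1972576 bp. Among genes of about the length of Shank2 the promoter share was 57.8%. No enrichment was tested. Strong promoter summits of the first list were at Pcp4 (884), a small calmodulin-binding protein, and Camk1d (557), another CaM kinase. In the second the strongest were at Lrrc7 (670), which encodes densin, Dlgap4 (611), of a family that bridges PSD-95 and SHANK, and Homer3 (590), a SHANK-binding scaffold. No gene of either list was without a summit. Each of these 5 values was above the highest promoter signal of the 10 genes under the same basic annotation, 398 at Camk2d; with the comprehensive annotation Shank3 reached 853. The median density of the 40 genes was 7.83 summits per 100 kb, below the 10.2 of the 10 genes.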

How the data were processed

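CTCF ChIP-seq was deposited for 4 libraries in 2 biological replicates. Coordinates are on mm10, per the labels. What aligned the reads, called the peaks and served as control is not given in the sources used here, nor are versions. The authors deposited ranked and IDR-thresholded peak lists called between replicates, within each replicate and on pooled reads. The signal of each peak was deposited by the authors on an unstated scale. The IDR score (540 at an IDR of 0.05) and the -log10 IDR are likewise deposited columns. In the between-replicate ranked list of 203931 peaks, 78.1% of the first input peaks were found in the replicate 1 list and 0 in the replicate 2 list; 80.0% of the second were found in the replicate 2 list.

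The thresholded between-replicate list was the main list. Summits were assigned to GENCODE M21 genes; gene bounds come from all transcripts, TSSs from the basic annotation. The members and lists were chosen with earlier results of these data known. Named were each member's strongest and promoter summits, the 3 strongest where it had over 5, and, per pathway list, the 3 strongest promoter summits and up to 2 genes without any. A gene that the rule names is not reported here. Summits shown beyond this rule were chosen after their values were seen. The tools were pysam 0.24.0, pandas 2.3.3, numpy 2.4.6, scipy 1.17.1 and matplotlib 3.10.9 under Python 3.11.15, and the motif search, the counting of summits in windows and the merging of overlapping peaks were tested on simulated data. The read depth behind a peak is unknown, and its precision with it.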

Additional observations from a re-analysis of the deposited data

How the results depend on the processing

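The 10 genes had at least 1 summit under every alternative tried for that count. The count of genes with a promoter summit (5) became 3 at an IDR of 0.01, 2 with the pooled-read list, and 8 with a promoter limit of 5 kb or with the comprehensive annotation; with each replicate left out in turn it ran from 3 to 5. It was 3 from the list of replicate 1 alone, which leaves out replicate 2. With 50 kb flanks the loci held 173 summits in place of 114. The median density (10.2 per 100 kb) was 7.76 with the pooled-read list, 9.66 without flanks and 9.58 with 50 kb flanks, and from 7.76 to 8.46 with a replicate left out; the medians over all genes were then 4.46, 3.66, 6.03 and from 4.85 to 4.97. The share of summits with a core motif (46.5%) was 11.4% with no mismatch, 71.9% with at most 2, and from 46.9% to 56.5% with a replicate left out. The share in introns (74.6%) was 64.0% with a promoter limit of 5 kb. Of the 55 alternative values, the other 40 stayed within fixed limits: counts within 1.5 times the main count, shares within the 95% exact interval, the density within 1 SD of the single-replicate lists, and the replicate ratio within 1 SD over the summits. These limits are wide for counts: the loci held 79 summits with the pooled-read list, and 34 pathway genes had a promoter summit at 5 kb in place of 25. Of the counts for single genes 54 stayed within 1.5 times and 16 did not. Without replicate 2, Camk2a fell from 12 to 7 summits and Camk2b from 11 to 7. With the pooled-read list Camk2g fell from 14 to 9 summits, Shank3 from 12 to 7 and Camk4 from 9 to 5. Camk2a and Camk2b had 7 each in that list, and Shank2, with 27 in place of 35, stayed within the limit. The percentiles among genes of comparable length were not recomputed for these lists. The cause of these changes was not tested. Precision is limited by 2 replicates and an unstated read depth. No paired analysis was possible because the replicates are not compared between groups.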
